A study of Mus musculus with 6 samples.

Results

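The JAK-STAT pathway carries cytokine signals from the cell surface to the nucleus, and the RNA of 10 of its genes was followed in macrophages grown from monocytes that had been sorted into subsets. The genes were chosen by name from the gene tables of the series, with earlier results of these data known. The choice took in 10 of the 24411 genes listed. They are the Janus kinase genes Jak1 and Jak2, the STAT genes Stat3, Stat5a, Stat5b and Stat6, and the feedback genes Socs1, Socs2, Socs3 and Cish.

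Cytokine receptors of this pathway have no kinase domain of their own, and Janus kinases bound to their tails phosphorylate the receptor once a cytokine has joined its chains. STAT proteins dock on the phosphorylated receptor, are phosphorylated in turn, pair up and act in the nucleus as transcription factors. Among the genes they induce are SOCS genes, whose proteins block the kinase or the receptor and, through a short region called the SOCS box, bring in a ubiquitin ligase, so that the signal limits itself. In macrophages, STAT3 is known for interleukin-10 and interleukin-6 signals, STAT6 for interleukin-4 and interleukin-13, and STAT5 for GM-CSF.

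The cells came from bone marrow of C57BL/6 mice, an inbred laboratory strain, with no allele or drug named in the labels. Monocytes were sorted by flow cytometry into LFA1-lo Itgam-lo and LFA1-hi Itgam-hi cells, named for 2 surface adhesion molecules, and each subset was kept for 7 days in RPMI with 10% fetal serum and 20 ng/ml M-CSF, with fresh medium on day 4. M-CSF is the growth factor that turns monocytes into macrophages, so every library comes from cells that had been exposed to it. The 3 libraries of each subset are called LFA1-lo and LFA1-hi after the sort, which preceded the culture. Nothing in the labels ties the replicates to separate mice or dishes, so the p-values speak only of how these samples vary, and that variation may be technical.

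Libraries held 15191262 to 17614509 expected counts, which are RSEM's estimates of the reads of each gene, and 3 counts corresponded to 0.168 to 0.191 CPM (counts for each 1000000 of the library total after TMM scaling for composition). In a principal component analysis of the 500 tested genes that varied most over these libraries, the leading component set the groups apart. It carried 84.2% of the variance of those genes. The next held 7.03% and set LFA1-lo replicate 2 apart, at -10.8 against 5.70 and 7.85 in the other LFA1-lo libraries. Of 11692 genes tested, 31.7% passed an adjusted p of 0.05 in edgeR's quasi-likelihood test, with 1883 genes higher in LFA1-hi and 1822 lower. With library totals in place of TMM factors the split was 2294 higher and 1471 lower. Of 10 macrophage markers, all tested, 5 were lower and 1 was higher in LFA1-hi (median log2 difference -0.31, summed CPM 18195 to 23552 in LFA1-lo against 14336 to 16640). Cell cycle markers were higher in LFA1-hi for 8 of 8 genes (summed CPM 572 to 937 in LFA1-lo against 2040 to 2274). Neutrophil markers summed to 71.4 to 91.4 CPM in LFA1-lo against 24.7 to 28.7. Most of that sum was Csf3r, also a receptor of the pathway (49.6 to 59.5 CPM against 19.1 to 25.0). Of 5 neutrophil markers tested 4 were lower and 0 higher (median log2 difference -3.86). S100a9 was at 3.40 to 13.6 CPM in LFA1-lo against 0.382 to 0.671, and S100a8 did not pass. Progenitor markers summed to 21.0 to 32.1 CPM against 9.16 to 11.9, with Hoxa9 and Flt3 at 0 counts in every library. Of 5 progenitor markers tested 3 were lower and 0 higher. Cd34 did not fall (3.76 to 4.11 CPM in LFA1-lo, 4.02 to 5.15 in LFA1-hi). Of the 8 T and NK cell markers 5 were at 0 everywhere, as were 3 of 7 B cell markers and 4 of 6 mast cell and basophil markers. The same held for 2 of 9 dendritic, 3 of 8 erythroid and megakaryocyte, and 1 of 8 stromal and endothelial markers. Of these, Itgax (44.9 to 229 CPM in LFA1-lo, 107 to 275 in LFA1-hi), Bst2 (54.6 to 81.1, 65.9 to 67.5) and Pf4 (224 to 300, 257 to 290) were clearly measured. Stromal and endothelial markers summed to 1.49 to 2.23 CPM in LFA1-lo against 1.51 to 3.31. The part of these marker differences in the results below was not tested.

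Promoter sequences are shown for the members whose proximal promoter holds TTCNNNGAA, the palindromic core that STAT dimers are known to bind. The RefSeq promoter table for GRCm38.p6 gives 250 bases before and 50 after a gene's start, and 9 of the 10 members were matched in it by symbol, Socs2 being the other. TTCNNNGAA reads the same on both strands. It occurred in 2 of the 9 members, Socs3 and Cish, and in 9.55% of all 27025 genes of the table (8.30% of its 32851 promoters). TTCNNNNGAA, the spacing with 1 more base that STAT6 prefers, occurred in 0 of the 9 and in 8.01% of all genes (6.95% of promoters). A match is a description of the letters, not a binding site. In the lines below the capitals mark the match.
Socs3, chr11:117969467-117969616, minus strand: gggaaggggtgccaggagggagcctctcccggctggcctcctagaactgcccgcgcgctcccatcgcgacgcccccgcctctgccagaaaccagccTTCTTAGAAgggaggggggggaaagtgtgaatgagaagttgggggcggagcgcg
Cish, chr9:107296649-107296678, plus strand: ccgcccagttTTCCTGGAAagTTCTTGGAA
The Socs3 match began 154 bases before the start used by the table, and the GENCODE start of the main Socs3 transcript lies 180 bases further downstream. The searched window ended 50 bases after the table's start and did not reach the GENCODE start. In RefSeq coordinates Socs3 spans 117966079 to 117970336, so the match lies inside that span. The Cish stretch holds 2 matches, which began 1 and 12 bases from the start.

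Levels of different genes were compared in TPM, which is scaled by transcript length. In LFA1-lo, Stat6 was highest (135.5 TPM ± 6.40, SD, n = 3), followed by Jak1 (120.7 ± 8.87), Stat3 (49.7 ± 5.73), Stat5b (30.9 ± 3.59), Jak2 (19.4 ± 1.39) and Stat5a (15.9 ± 0.973). The feedback genes were lower, with Socs3 at 4.97 ± 0.455, Socs1 at 2.34 ± 0.817, Cish at 1.36 ± 0.796 and Socs2 at 0.337 ± 0.0723. Of the 9 neighbouring pairs in that order only Socs1 and Cish overlapped over libraries. In LFA1-hi, Stat6 (109.6 ± 3.59), Jak1 (97.8 ± 1.32), Stat3 (33.7 ± 0.432) and Stat5b (27.1 ± 0.995) kept that order. Stat5a (16.4 ± 0.348) and Jak2 (14.6 ± 1.99) followed and overlapped each other. Socs1 came next at 1.97 ± 0.653, then Socs3 at 1.22 ± 0.506, Cish at 0.490 ± 0.201 and Socs2 at 0.230 ± 0.181, and each of these neighbours overlapped. Signal transducers therefore stood well above feedback genes in both groups, and Socs3 ranked 7 of 10 in LFA1-lo and 8 of 10 in LFA1-hi.

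**Figure D1:**
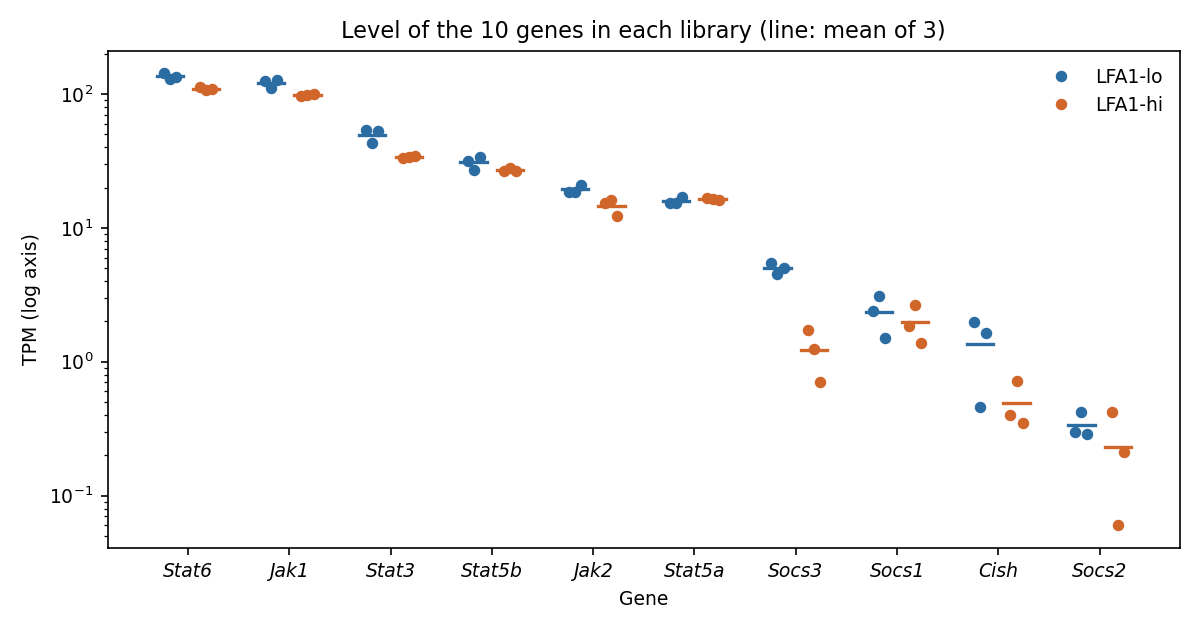
TPM of the 10 members in each library on a log scale, with points for libraries and a line for each group's mean. Stat6 and Jak1 lie near 100 TPM in every library, and the 3 LFA1-hi points of Socs3 (0.70 to 1.71 TPM) all lie below the 3 LFA1-lo points (4.51 to 5.42).

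Among the 9 members that passed the filter on low counts, 5 were lower in LFA1-hi (Socs3, Stat3, Jak2, Stat6 and Jak1) and 0 higher. Over all tested genes 15.6% were lower and 16.1% higher, a comparison that only describes members chosen with earlier results known. The same 5 were the members whose groups did not overlap, which held for 47.8% of all tested genes. The median log2 difference (LFA1-hi minus LFA1-lo) was -0.28 over the 9 and 0.00 over all tested genes (-0.0047). Socs2 was not tested. Without LFA1-lo replicate 2, the library that stood apart, 7 members were called, Cish and Stat5b in addition. Leaving out each of the other libraries gave 2 to 4 called members, and library totals as scaling gave 3. In bulk RNA, fewer cells of a type and less RNA for each cell cannot be told apart.

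Socs3, whose protein binds the gp130 receptor chain and Janus kinases and limits interleukin-6 type signals, had the largest fall among the members. Its level was 7.40, 6.44 and 6.87 CPM in LFA1-lo replicates 1, 2 and 3 and 2.46, 1.72 and 1.01 CPM in LFA1-hi replicates 1, 2 and 3. All LFA1-hi libraries lay below all LFA1-lo libraries, and the LFA1-lo libraries were close to each other. The fall was 3.98-fold (log2 -1.99, SE 0.32, 95% interval -2.72 to -1.26, edgeR adjusted p = 0.00179). These values rest on 342 counts for LFA1-lo and 89 for LFA1-hi. The coefficient of variation over libraries was 6.93% in LFA1-lo, where counting alone gives 9.37%, and 42.0% in LFA1-hi, where counting gives 18.4%. Socs3 passed under each of the 15 alternatives that tested it, the filter of at least 10 CPM in 3 libraries having removed it, with log2 differences of -2.34 to -1.45 and adjusted p from 1.10e-07 to 0.0139. As a share of the TPM of the 8 SOCS family genes, Socs3 was 5.35% ± 0.193 in LFA1-lo and 1.76% ± 0.719 in LFA1-hi, without overlap.

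Cish, a STAT5-induced gene whose protein competes for STAT5 docking on receptors, was at 2.09, 0.510 and 1.76 CPM in LFA1-lo and 0.447, 0.764 and 0.392 CPM in LFA1-hi. LFA1-lo replicate 2 was low and fell among the LFA1-hi libraries, while LFA1-lo replicates 1 and 3 lay above them. The difference did not pass (log2 -1.45, SE 0.62, 95% interval -2.83 to -0.07, edgeR adjusted p = 0.102). Without LFA1-lo replicate 2 it was -1.85 (adjusted p = 0.0174), and over all alternatives adjusted p ran from 0.0174 to 0.306. Its counts were 35, 8 and 30 for LFA1-lo and 8, 12 and 7 for LFA1-hi. In the GENCODE annotation Cish overlaps other annotated genes, and whether the counting used the read strand is not given in the sources used here.

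Socs1, which inhibits the kinase domain of Janus kinases and is known for limiting interferon signals, was at 1.31, 1.79 and 0.822 CPM in LFA1-lo and 1.06, 1.46 and 0.783 CPM in LFA1-hi. The groups overlapped throughout. Its difference was log2 -0.25 (SE 0.47, 95% interval -1.31 to 0.82, edgeR adjusted p = 0.729), from 64 and 56 counts. The interval covers changes in either direction. The coefficient of variation in LFA1-lo was 36.9%, where counting alone gives 21.7%. Without LFA1-lo replicate 2 the sign turned (0.04, adjusted p = 0.963; adjusted p from 0.514 to 0.964 over alternatives).

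Socs2, a regulator of growth hormone signals, had 5, 7 and 5 counts for LFA1-lo and 8, 1 and 4 for LFA1-hi and was removed by the filter. The ratio of LFA1-hi to LFA1-lo was 0.735, with a 95% interval of 0.328 to 1.61 that covers counting error only. Fitted without the filter, its log2 difference was -0.46 (SE 1.07, edgeR adjusted p = 0.795). Of the 4 feedback genes Socs3 passed the test, and differences between these genes were not tested.

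Jak1, the kinase shared by gp130, interferon and interleukin-4 receptors, was at 346, 319.8 and 353 CPM in LFA1-lo and 281, 271 and 288 CPM in LFA1-hi. The groups did not overlap, and the spread within each was small. Jak1 was 17.6% lower in LFA1-hi (log2 -0.28, SE 0.07, 95% interval -0.44 to -0.12, edgeR adjusted p = 0.0169). It missed the threshold with library totals as scaling (adjusted p = 0.0534) and without LFA1-lo replicate 1 (0.0577) or LFA1-hi replicate 1 (0.0677), 2 (0.0950) or 3 (0.0584), with adjusted p from 0.000602 to 0.0950 over alternatives. Jak1 overlaps Raver2 on the other strand in the GENCODE annotation.

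Jak2, the kinase of GM-CSF and growth hormone receptors, was at 48.7, 51.3 and 55.7 CPM in LFA1-lo and 42.1, 42.6 and 34.0 CPM in LFA1-hi. LFA1-hi replicate 3 was the lowest library, and the groups did not overlap. The fall was 23.7% (log2 -0.39, SE 0.11, 95% interval -0.64 to -0.14, edgeR adjusted p = 0.0260). It missed the threshold with library totals (adjusted p = 0.0583) and without LFA1-lo replicate 3 (0.0666) or LFA1-hi replicate 1 (0.0588), 2 (0.0553) or 3 (0.110), with adjusted p from 0.00948 to 0.110 over alternatives.

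The family members of Jak1 and Jak2 were lower too. In all, 4 of 4 Janus kinase genes passed the test, against 31.7% of all tested genes. Jak3, which pairs with the common gamma chain Il2rg, had the largest fall of the 4, from 22.1 CPM ± 2.43 (SD, n = 3) to 11.4 ± 1.34 (log2 -0.96, SE 0.15, edgeR adjusted p = 0.00132). The expected counts of Jak3 were not whole in any library, so some of its reads were divided with other genes. In the GENCODE annotation Jak3 overlaps Insl3 on the same strand. Tyk2, which serves interferon and interleukin-10 receptors, went from 70.7 CPM ± 8.36 to 53.4 ± 1.80 (log2 -0.40, SE 0.10, edgeR adjusted p = 0.0147). The count of called kinases was 2 with library totals or without LFA1-lo replicate 1, and 1 without any single LFA1-hi library. The summed TPM of the 4 kinases was 179 ± 14.3 in LFA1-lo and 139 ± 1.10 in LFA1-hi. Jak1 made up 67.4% ± 0.668 of that sum in LFA1-lo and 70.5% ± 1.48 in LFA1-hi, and Jak3 6.31% and 4.15%, both without overlap.

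Stat3, the transcription factor of gp130 and interleukin-10 receptors and an inducer of Socs3, was at 124, 105 and 123 CPM in LFA1-lo and 81.4, 78.4 and 83.3 CPM in LFA1-hi. LFA1-lo replicate 2 was the lowest of its group and still above every LFA1-hi library. Stat3 was 31.0% lower in LFA1-hi (log2 -0.53, SE 0.09, 95% interval -0.74 to -0.33, edgeR adjusted p = 0.00215). It passed under every alternative, with log2 differences of -0.61 to -0.47 and adjusted p from 6.13e-06 to 0.0208. Among the 5 called members, Socs3 and Stat3 alone kept the call whichever single library was left out.

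Stat6, the factor of interleukin-4 and interleukin-13 signals, was at 278, 266 and 264 CPM in LFA1-lo and 233, 209.7 and 222 CPM in LFA1-hi. The groups did not overlap. The fall was 17.8% (log2 -0.28, SE 0.07, 95% interval -0.45 to -0.12, edgeR adjusted p = 0.0168). It missed the threshold without LFA1-lo replicate 1 (adjusted p = 0.0616) or LFA1-hi replicate 2 (0.0981) or 3 (0.0748), with adjusted p from 0.00243 to 0.0981 over alternatives. Stat6 overlaps Nab2 on the other strand.

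Stat5a and Stat5b encode near-identical factors of GM-CSF and growth hormone signals. Stat5a was at 29.3, 31.3 and 33.2 CPM in LFA1-lo and 33.5, 32.0 and 32.9 CPM in LFA1-hi. Stat5b was at 83.3, 73.0 and 89.1 CPM in LFA1-lo and 72.5, 73.4 and 71.5 CPM in LFA1-hi. The groups overlapped for both genes. Stat5a differed by log2 0.07 (SE 0.10, 95% interval -0.15 to 0.29, edgeR adjusted p = 0.627), an interval that does not reach the estimate for Stat3. Stat5b differed by -0.18 (SE 0.09, 95% interval -0.38 to 0.03, edgeR adjusted p = 0.182). With LFA1-lo replicate 2 left out it passed (-0.25, adjusted p = 0.0179; adjusted p from 0.0179 to 0.426 over alternatives).

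The expected counts of Stat5a and Stat5b were not whole, but their sum was whole in all 6 libraries, so RSEM divided reads between the pair. Stat5a took 26.0%, 30.0% and 27.1% of the summed counts in LFA1-lo and 31.6%, 30.4% and 31.5% in LFA1-hi, which did not overlap. The sum itself was 113 CPM ± 9.04 in LFA1-lo and 105 ± 0.789 in LFA1-hi (log2 -0.10, SE 0.08, edgeR adjusted p = 0.381), in a fit added after seeing the data. The pair and Stat3 lie side by side on chromosome 11, with 346 bases between Stat5b and Stat5a and 1636 between Stat5a and Stat3, in RefSeq coordinates of GRCm38.p6. In the GENCODE annotation Stat5a overlaps Stat3, which lies on the other strand. The expected counts of Stat3 were whole in all 6 libraries, as was the sum of the pair. The counts therefore show no division of reads between Stat3 and the pair. They cannot show whether reads from the overlap were given whole to the wrong gene, because the strand setting is not given. Of these 3 neighbours, Stat3 (minus strand, 100886806 to 100939594) passed the test and Stat5a (plus strand, 100859351 to 100885169) and Stat5b (minus strand, 100780731 to 100859004) did not.

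**Figure D2:**
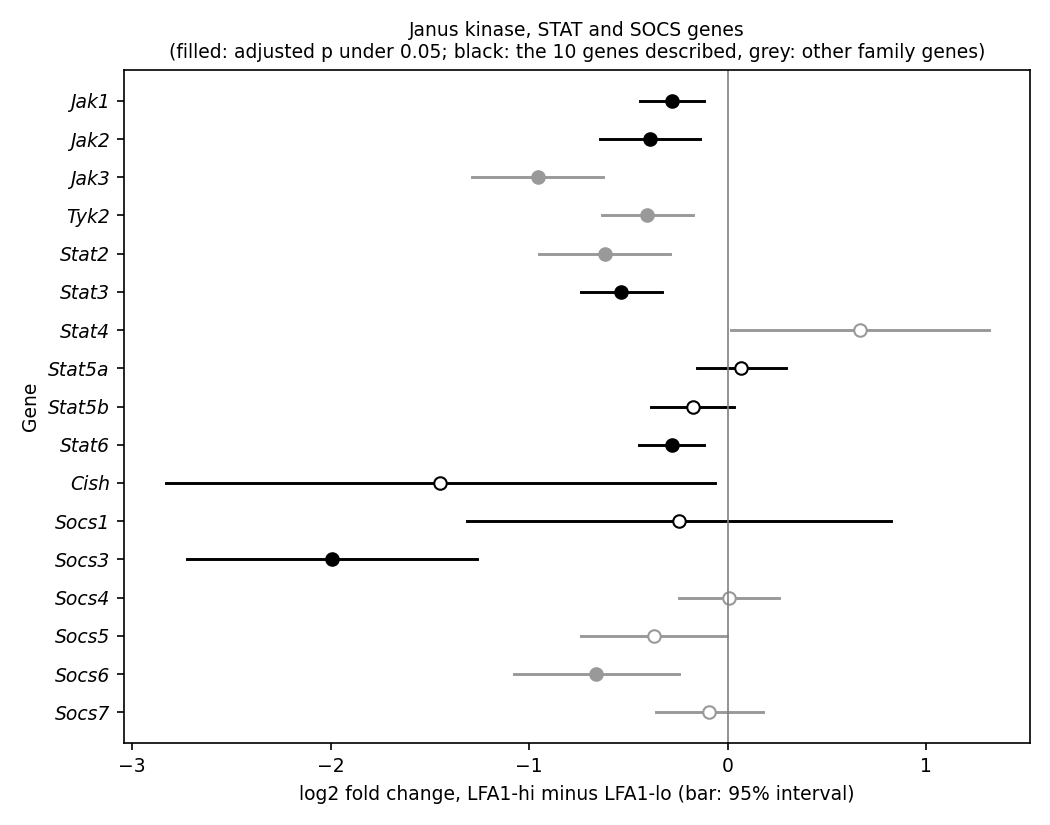
Log2 difference (LFA1-hi minus LFA1-lo) of the tested Janus kinase, STAT and SOCS family genes, with points for edgeR estimates (filled where the adjusted p was under 0.05) and bars for 95% intervals. Socs3 (-1.99) lies farthest to the left, all 4 Janus kinases lie below 0, and Stat5a (0.07) lies near 0.

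Of the other STAT genes, Stat2, which acts in type I interferon signals, went from 105 CPM ± 21.5 to 68.2 ± 4.58 (log2 -0.62, SE 0.15, edgeR adjusted p = 0.0116), and missed the threshold without LFA1-hi replicate 3 (adjusted p = 0.0560; adjusted p from 0.000678 to 0.0560 over alternatives). Stat4, the interleukin-12 factor, had the highest estimate of the 6 STAT genes described (log2 0.67, SE 0.29, edgeR adjusted p = 0.109), and passed without LFA1-lo replicate 3 (1.00, adjusted p = 0.0220; adjusted p from 0.0220 to 0.356 over alternatives). Of these 6, 3 were lower and 0 higher, against 15.6% and 16.1% of all tested genes. That count was 1 when LFA1-hi replicate 3 was left out. The summed TPM of the 6 was 281 ± 13.2 in LFA1-lo and 222 ± 6.15 in LFA1-hi. Of that sum, Stat5a made up 5.65% ± 0.212 in LFA1-lo and 7.39% ± 0.0631 in LFA1-hi, without overlap. Stat3 made up 17.7% ± 1.45 and 15.2% ± 0.608, also without overlap, and Stat6 48.3% ± 2.55 and 49.4% ± 0.941, with overlap.

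The SOCS genes outside the members, Socs4 to Socs7, held most of the family's RNA, with a summed TPM of 84.0 ± 9.12 in LFA1-lo and 65.0 ± 1.68 in LFA1-hi, against 9.01 ± 0.948 and 3.91 ± 1.11 for Socs1, Socs2, Socs3 and Cish. These 4 are less known as cytokine feedback genes. Socs6 passed the test (57.3 CPM ± 15.8 to 36.3 ± 2.67, log2 -0.66, SE 0.18, edgeR adjusted p = 0.0244), though not without LFA1-lo replicate 1 (adjusted p = 0.0623) or LFA1-hi replicate 1 (0.0946), 2 (0.0623) or 3 (0.0833), with adjusted p from 8.10e-05 to 0.0946 over alternatives. Socs4 (log2 0.01), Socs5 (-0.37, edgeR adjusted p = 0.114) and Socs7 (-0.09) did not pass. Socs5 passed with LFA1-lo replicate 3 left out (-0.54, adjusted p = 0.00489; adjusted p from 0.00489 to 0.375 over alternatives), and the signs of Socs4 and Socs7 turned under some alternatives.

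The subunits that join the SOCS box to its ubiquitin ligase had estimates above 0, with a median log2 difference of 0.34. In LFA1-hi 2 of 5 were higher and 0 lower, where 31.7% of all tested genes were called, 16.1% higher and 15.6% lower. Tceb1, which encodes Elongin C, went from 19.7 CPM ± 3.17 to 32.1 ± 5.45 (log2 0.71, SE 0.17, edgeR adjusted p = 0.0105). Tceb2, which encodes Elongin B, went from 73.1 CPM ± 8.34 to 97.6 ± 4.68 (log2 0.42, SE 0.10, edgeR adjusted p = 0.0112). Rbx1 (0.34, adjusted p = 0.0551), Cul5 (0.18) and Rnf7 (0.16) did not pass, and Rbx1 passed under 6 of 16 alternatives. The count of called subunits was 0 when LFA1-hi replicate 1 was left out and 1 when replicate 2 was.

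Of 12 other negative regulators, 1 was higher and 3 were lower (median -0.10), a share called that is near the 31.7% of all tested genes. Pias3, which inhibits STAT3, was higher in LFA1-hi (15.7 CPM ± 1.67 to 25.9 ± 3.63, log2 0.72, SE 0.15, edgeR adjusted p = 0.00535). The phosphatase genes Ptprc (552 CPM ± 48.3 to 397 ± 3.03, log2 -0.48, adjusted p = 0.00220) and Ptpn6 (288 ± 16.1 to 215 ± 16.9, log2 -0.42, adjusted p = 0.00476) were lower in edgeR's test. Sh2b3, an adaptor that binds Jak2, was lower (log2 -0.36, edgeR adjusted p = 0.0272), and missed the threshold with library totals and when LFA1-lo replicate 1 or a single LFA1-hi library was left out, with adjusted p from 0.00111 to 0.123 over alternatives.

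Upstream of STAT3, 4 of the 8 tested gp130 and interleukin-10 receptor chains were lower and 0 higher (median -0.93). The counts of this list and those that follow stand beside 15.6% lower and 16.1% higher over all tested genes. Il6st, the gene of gp130 itself, was at 341, 378 and 329.7 CPM in LFA1-lo and 137, 149 and 152 CPM in LFA1-hi, without overlap (log2 -1.26, SE 0.08, edgeR adjusted p = 2.34e-05). Il10ra, the ligand-binding chain for interleukin-10, was at 139, 112 and 134 CPM in LFA1-lo and 47.0, 44.2 and 50.7 CPM in LFA1-hi, without overlap (log2 -1.44, SE 0.11, edgeR adjusted p = 3.05e-05). Csf3r, the G-CSF receptor and also a neutrophil marker, went from 54.5 CPM ± 4.93 to 22.4 ± 3.03 (log2 -1.28, SE 0.13, edgeR adjusted p = 0.000131). Il6ra went from 85.6 CPM ± 25.1 to 47.3 ± 2.79 (log2 -0.86, SE 0.20, edgeR adjusted p = 0.0154), and missed the threshold without LFA1-lo replicate 1 (0.0542) or LFA1-hi replicate 2 (0.0634), with adjusted p from 1.43e-07 to 0.0634 over alternatives.

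Upstream of STAT5, 5 of the 8 tested receptor genes were lower and 0 higher (median -0.81), and 4 of the 15 listed were at 0 in every library. Csf2rb, the signalling chain for GM-CSF, went from 456 CPM ± 77.4 to 142 ± 22.8 (log2 -1.69, SE 0.15, edgeR adjusted p = 0.000118). Csf2rb2, its near-identical neighbour for interleukin-3, went from 414 CPM ± 84.3 to 107 ± 12.6 (log2 -1.96, SE 0.15, edgeR adjusted p = 6.19e-05), and how reads were divided between these copies is uncertain. Il2rg went from 166 CPM ± 51.2 to 68.4 ± 7.83 (log2 -1.27, SE 0.20, edgeR adjusted p = 0.00274). Csf1r, the receptor for the M-CSF in the medium and a receptor with a kinase domain of its own, went from 2788 CPM ± 343 to 1374 ± 84.7 (log2 -1.02, edgeR adjusted p = 0.000155).

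Upstream of STAT6, the chains Il4ra (log2 -0.18, SE 0.15, edgeR adjusted p = 0.383) and Il13ra1 (-0.13, SE 0.18, adjusted p = 0.639) did not pass, and Il2rg was the called gene of 3. Il4ra was at 117, 89.3 and 142 CPM in LFA1-lo and 105, 101 and 101 CPM in LFA1-hi. LFA1-lo replicate 2 was the lowest library of all and the other LFA1-lo libraries lay above every LFA1-hi library. Without it the log2 difference of Il4ra was -0.34 (adjusted p = 0.00436; adjusted p from 0.00436 to 0.964 over alternatives).

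Among the interferon receptor chains, 3 of 4 were lower and all 4 had groups without overlap (median -0.62). Over all tested genes the shares were 15.6% lower and 47.8% without overlap. Ifngr1 went from 233 CPM ± 40.3 to 109 ± 5.05 (log2 -1.10, SE 0.12, edgeR adjusted p = 0.000242). Ifnar1 went from 305 CPM ± 13.9 to 189 ± 1.27 (log2 -0.69, SE 0.07, edgeR adjusted p = 0.000154), and Ifngr2 from 189 ± 4.12 to 129 ± 11.0 (log2 -0.55, SE 0.08, adjusted p = 0.00124). Ifnar2 was at log2 -0.26 (SE 0.09, edgeR adjusted p = 0.0536) and passed under 4 of 16 alternatives, with adjusted p from 0.00358 to 0.215 over them.

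**Figure D3:**
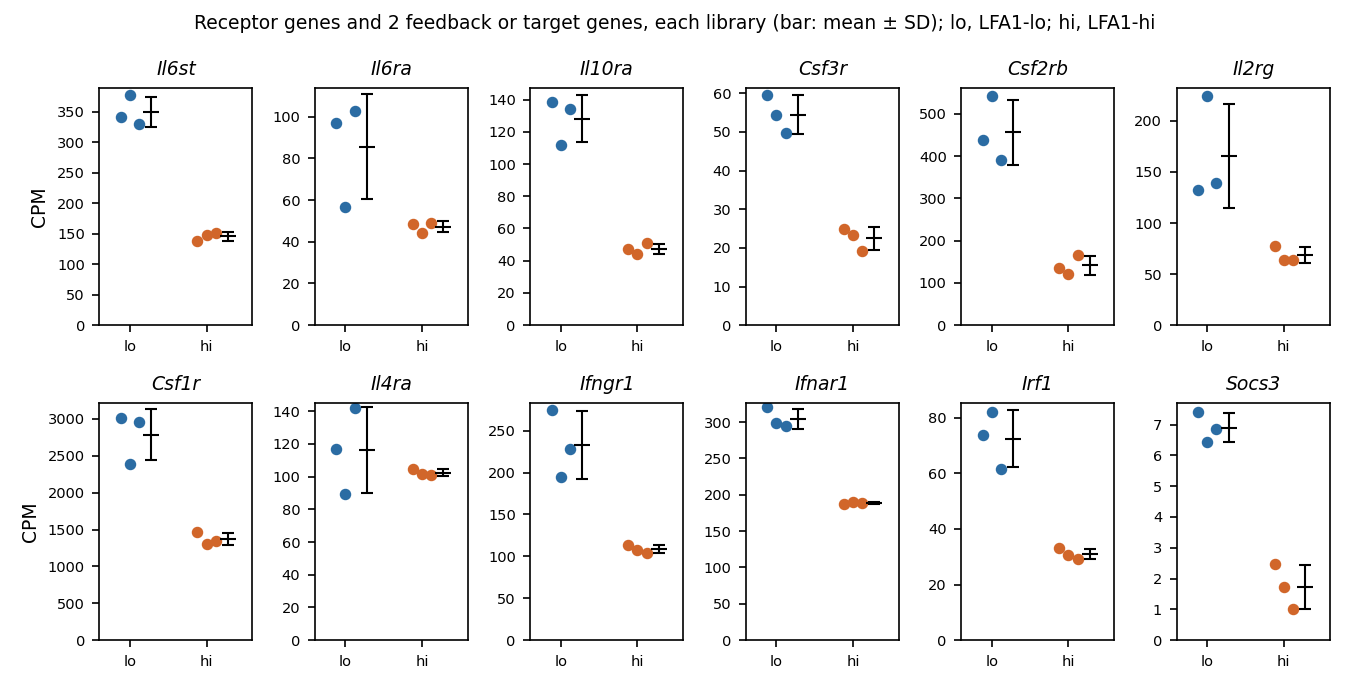
CPM of 10 receptor genes and of Irf1 and Socs3 in each library, on linear axes that start at 0, with points for libraries and bars for the mean ± SD of each group. The LFA1-lo points of Il6st (329.7 to 378 CPM) all lie above its LFA1-hi points (137 to 152), while the groups of Il4ra overlap.

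Few ligand genes of the pathway were measurable. Of 20 listed, 10 were at 0 counts in every library, which allows up to 0.168 to 0.191 CPM in a library. They were named after their values were seen and are Il6, Il12a, Il12b, Il4, Il13, Il3, Csf2, Csf3, Ifng and Ifnb1. Of 5 ligands tested, 2 were lower and 0 higher. Il15 went from 8.43 CPM ± 0.349 to 4.66 ± 0.591 (log2 -0.85, SE 0.19, edgeR adjusted p = 0.00941). Ebi3, a subunit of interleukin-27, went from 56.0 CPM ± 8.52 to 38.2 ± 5.28 (log2 -0.55, SE 0.14, edgeR adjusted p = 0.0150), and missed the threshold without LFA1-lo replicate 1 (0.0596) or LFA1-hi replicate 2 (0.0788) or 3 (0.0733), with adjusted p from 0.000127 to 0.0788 over alternatives.

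Genes known as STAT3 targets were lower in 7 of 12 cases and higher in 0 (median -0.77), Socs3 being among them. Fos went from 162 CPM ± 48.8 to 59.8 ± 3.87 (log2 -1.44, SE 0.20, edgeR adjusted p = 0.00136) and Junb from 155 ± 38.0 to 57.9 ± 4.14 (log2 -1.42, SE 0.17, adjusted p = 0.000613). Both encode AP-1 factors that many other signals also induce. Bcl3, an IkB family protein, went from 22.0 CPM ± 4.75 to 10.5 ± 1.53 (log2 -1.06, SE 0.19, edgeR adjusted p = 0.00254).

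Genes known as STAT5 targets were divided, with 3 lower and 2 higher of 10 tested (median -0.19). Dusp5, a phosphatase that acts on ERK, went from 14.6 CPM ± 9.02 to 2.99 ± 0.559 (log2 -2.28, SE 0.43, edgeR adjusted p = 0.00508). The kinase gene Pim1, also listed for STAT3, went from 40.9 CPM ± 7.17 to 24.3 ± 1.51 (log2 -0.75, SE 0.14, edgeR adjusted p = 0.00348). Ccnd2, which encodes cyclin D2, rose from 25.3 CPM ± 5.20 to 60.1 ± 6.46 (log2 1.25, SE 0.16, edgeR adjusted p = 0.000494). Myc rose from 59.3 CPM ± 14.4 to 84.2 ± 0.320 (log2 0.51, SE 0.16, edgeR adjusted p = 0.0399), and missed the threshold when LFA1-lo replicate 1 or a single LFA1-hi library was left out, with adjusted p from 0.00154 to 0.106 over alternatives. Both risen genes act in cell division, and cell cycle markers were higher in LFA1-hi as given above. Their part in these values was not tested. The count of called STAT5 targets was 3 without LFA1-lo replicate 1 or any single LFA1-hi library.

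Genes known as STAT6 targets were also divided, with 5 lower and 2 higher of 14 tested (median -0.32). Ccl22, a chemokine gene, had 190 counts for LFA1-lo and 6 for LFA1-hi (3.82, 6.83 and 1.11 CPM against 0.0559, 0.191 and 0.112; log2 -4.98, SE 0.82, edgeR adjusted p = 0.00200). Chil3 had 222 and 18 counts (log2 -3.67, SE 0.90, edgeR adjusted p = 0.0164), and missed the threshold in limma voom (0.0547) and without LFA1-hi replicate 1 (0.0631), with adjusted p from 2.96e-05 to 0.0631 over alternatives. Ccl24 went from 1.91 CPM ± 0.329 to 0.449 ± 0.149 (log2 -2.08, SE 0.47, edgeR adjusted p = 0.00913), with adjusted p = 0.0505 without LFA1-hi replicate 3 and from 0.000978 to 0.0505 over alternatives. Cdh1, which encodes E-cadherin, rose from 18 to 128 counts (log2 2.72, SE 0.60, edgeR adjusted p = 0.00828), with LFA1-hi replicate 3 the highest, and missed the threshold without it (adjusted p = 0.0564; adjusted p from 0.000245 to 0.0564 over alternatives). The count of called STAT6 targets was 11 without LFA1-lo replicate 2 and 3 with a filter of at least 10 CPM in 3 libraries.

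Of 14 tested genes known to be induced by interferons, 9 were lower, 0 were higher and 5 were not called (median -1.08). Cxcl10, a chemokine gene, went from 9.21 CPM ± 6.32 to 0.905 ± 0.606 (log2 -3.31, SE 0.68, edgeR adjusted p = 0.00821), with LFA1-lo replicate 2 the highest library. The guanylate-binding protein gene Gbp5 went from 7.56 CPM ± 3.93 to 1.03 ± 0.397 (log2 -2.87, SE 0.46, edgeR adjusted p = 0.00172) and Gbp2 from 34.9 ± 10.7 to 9.82 ± 0.972 (log2 -1.83, SE 0.22, adjusted p = 0.000396). Irf1, a transcription factor gene, was at 73.7, 82.1 and 61.6 CPM in LFA1-lo and 33.1, 30.6 and 29.2 CPM in LFA1-hi, without overlap (log2 -1.23, SE 0.12, edgeR adjusted p = 0.000116).

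**Figure D4:**
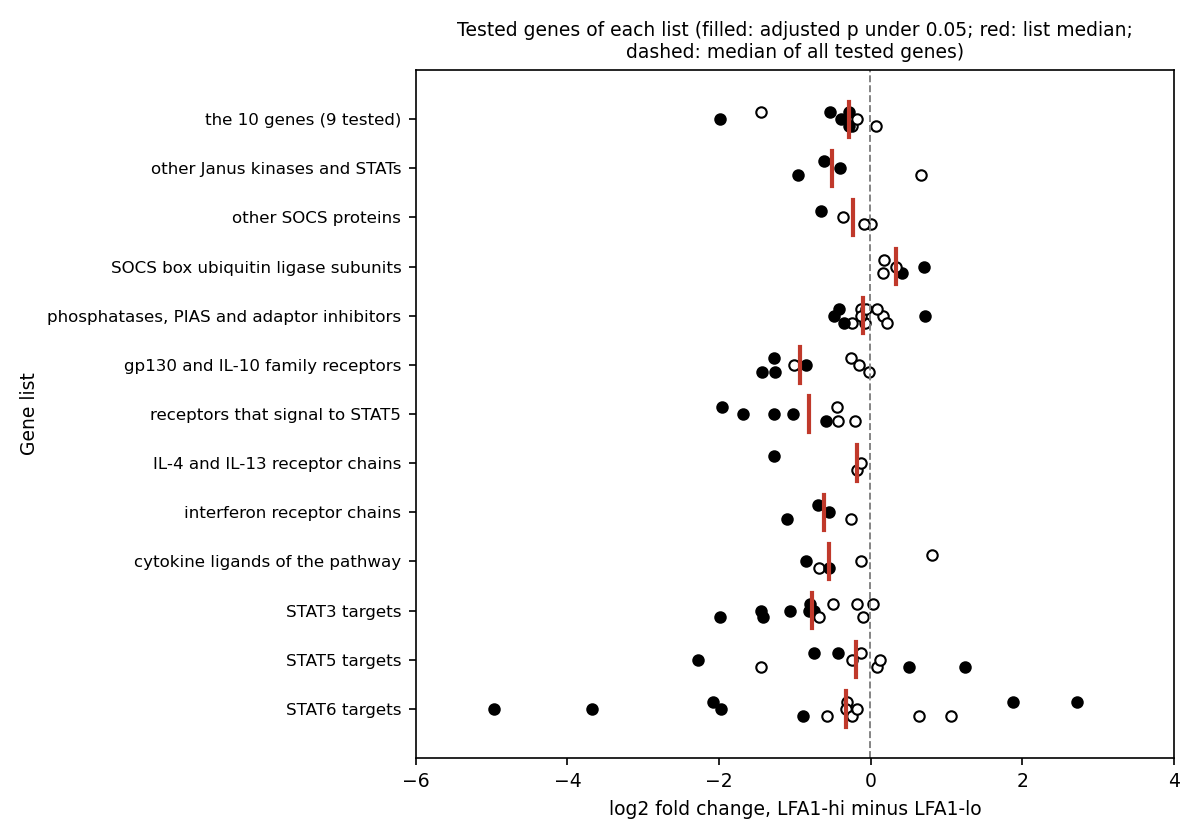
Log2 difference (LFA1-hi minus LFA1-lo) of each tested gene, listed by role in the pathway (filled where the adjusted p was under 0.05), with a bar for each list's median and a dashed line at the median of all tested genes (0.00). The receptor lists and the STAT3 targets have medians between -0.18 and -0.93, and the SOCS box subunits a median of 0.34. Interferon-induced genes are not drawn.

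Over all 92 tested pathway genes outside the members, 43 were lower, 7 were higher and 42 were not called (median -0.43), with 57 of the 92 without overlap. Over all tested genes 15.6% were lower, 16.1% higher and 47.8% without overlap. The lists were chosen with results of these data known, share genes with each other, and are described by counts and medians only. The 122 pathway symbols listed name Elongin B and Elongin C by both an old and a new symbol. Of these symbols, 88 had an entry in the promoter table, and TTCNNNGAA occurred in 17 of them and TTCNNNNGAA in 12. Among targets with an entry, TTCNNNGAA occurred in 2 of 11 for STAT3, 2 of 8 for STAT5 and 3 of 12 for STAT6. Among interferon-induced genes with an entry it occurred in 5 of 13. Of all genes in the table, 9.55% held TTCNNNGAA and 8.01% held TTCNNNNGAA in at least 1 promoter. The lines below show matches in some of the genes lower in LFA1-hi, chosen after their values were seen, on the strand given and with the match in capitals.
Irf1, chr11:53769914-53769942, plus strand: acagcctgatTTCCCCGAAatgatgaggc
Gbp5, chr3:142496872-142496900, plus strand: tggccgttatTTCTCAGAAccaagcacag
Ifnar1, chr16:91485200-91485228, plus strand: ggcgggggcgTTCACGGAAggggcggggc
Csf2rb2, chr15:78305718-78305746, minus strand: gtgtccacaaTTCTGAGAAgcaagcaaag
Chil3, chr3:106167718-106167746, minus strand: aaatacccacTTCTTAGAAacatagctat
Chil3 and Socs3 hold the same 9 letters, TTCTTAGAA. Other genes searched also share matches, such as TTCCTGGAA in Cish, Ifnar2 and Bcl6.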

How the data were processed

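Per the labels, libraries were made from rRNA-depleted RNA (KAPA RNA HyperPrep with RiboErase) and read on a NextSeq2000. Per the submitters' processing notes, bcl2fastq, Trim Galore, RSEM and the GRCm38 build were used. Aligner, strand setting and tool versions: not given in the sources used here. Deposited gene tables hold, per the file headers, RSEM expected counts, not normalized, and TPM. Expected counts were rounded (5.53% to 6.06% of genes in a library were not whole), filtered with filterByExpr and scaled by TMM. LFA1-hi minus LFA1-lo was tested in edgeR 4.0.16 (R 4.3.3) by robust quasi-likelihood fits, with Benjamini-Hochberg adjustment over 11692 genes and a threshold of 0.05. The procedure was tested on simulated data. The members and lists were chosen with earlier results of these data known. Named genes are the members, up to 4 called genes of each list with the largest differences among those with mean CPM of at least 1, and every tested gene of lists of 5 or fewer. Results for 1 gene of the pathway are not reported here. Alternatives were RLE or library totals, other filters, DESeq2 1.42.0, limma 3.58.1 (voom, or log2 of TPM plus 1 or 0.1), a replicate block, leaving out each library, and leaving out 1308 ribosomal and small RNA genes. Promoters and coordinates are RefSeq's for GRCm38.p6, counted from 1, with motifs searched on both strands.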

Additional observations from a re-analysis of the deposited data

How the results depend on the processing

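With library totals as scaling, 3 members were called in place of 5, and leaving out a library gave 2 to 7. Over all genes, leaving out a library gave 2288 to 5032 calls. Over the members' alternatives, 125 of 141 kept direction and side of the threshold, 13 lost the call, 2 gained it and 1 turned sign. With each library left out in turn, log2 differences that turned sign ran from -0.49 to 0.042 for Socs1 (LFA1-lo replicate 2), from -0.046 to 0.047 for Socs4 (LFA1-lo replicate 1, LFA1-hi replicate 1) and from -0.15 to 0.012 for Socs7 (LFA1-lo replicate 1), with the libraries that turned them in parentheses. Socs4 also turned to -0.014 on log2 of TPM plus 1 and to -0.0147 on TPM plus 0.1. The cause was not tested. Library totals moved the median of all genes to 0.06. The labels do not say whether replicate numbers pair the samples. With each group's mean taken out, same-number libraries correlated at 0.0292, 0.00748 and -0.108, and different-number ones at -0.074 to 0.0735. With 3 libraries a group these values cannot decide whether the samples were paired. A fit with the replicate number as a block called 5 members and 3253 genes in all. Rbx1 passed under it (adjusted p = 0.0416). Without LFA1-lo replicate 3, 2 of the 4 other SOCS genes were called. Ligand calls fell to 1 with at least 10 CPM in 3 libraries and without LFA1-lo replicate 1 or LFA1-hi replicate 2 or 3. Depth limits Socs2 and Socs1, which rest on 17 and 13 counts (LFA1-lo, LFA1-hi) and on 64 and 56. Cish varied more in LFA1-lo (57.3%) than counting gives (20.3%).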
